A study of Mus musculus with 4 samples.

Results

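Bone holds its Wnt signaling in check with a set of secreted inhibitors, and 10 of their genes were followed across the cells of the marrow next to bone. They are Sost, Dkk1, Dkk2, Dkk3, Sfrp1, Sfrp2, Sfrp4, Sfrp5, Wif1 and Frzb. They were chosen by name, as rows of the count tables, and make up 10 of the 26600 genes listed in all 4 tables. All 10 were listed in every table, and all 10 passed the filter on low levels.

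Wnt proteins signal through Frizzled receptors and their co-receptors LRP5 and LRP6, and in the skeleton this pathway favors the formation of osteoblasts and of new bone. The inhibitors act outside the cell in different ways. Sclerostin, the product of Sost, and the Dickkopf proteins DKK1 and DKK2 occupy the co-receptors, while DKK3 is the divergent member of its family. The secreted Frizzled-related proteins SFRP1, SFRP2, SFRP4 and SFRP5, FRZB, which belongs to the same family, and Wnt inhibitory factor WIF1 bind the Wnt proteins themselves. Sclerostin is known as a product of osteocytes, the cells buried in bone matrix, and is the target of an antibody used against osteoporosis.

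Cells came from male Col2:Td mice of the strain B6SJL/F1, in which Cre recombinase driven by Col2 promoter sequences turns on the Rosa26 lsl-tdTomato reporter (Td), so that cells that expressed Col2, and their descendants, stay red. Periosteum and the central marrow were removed, the remaining metaphyseal bone was digested with proteases, and the released Td+ cells were sorted, as the brightest fraction where no separate Td peak was seen. Mice of 1 age were pooled and sequenced as 1 single-cell library: 2 mice aged 1 month, and 3 mice each aged 1.5, 3 and 16 months. All 4 libraries share the transgenes and sorting for Td, and age is the only labelled difference. With 1 library per age there is no replicate, so no test between ages or cell classes was made, and age, litter, sort, sequencing run and gene table cannot be told apart.

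The tables held 8417, 5745, 4516 and 9229 barcodes at 1, 1.5, 3 and 16 months, with a median of 5998.5 to 10238 unique transcript tags (UMIs) each, and the stated filter on genes and mitochondrial UMIs kept 8308, 5453, 4180 and 6143 of them. At 3 and 16 months these are fewer cells than the study states after the same filter. Cells were clustered again without the 10 inhibitors, the pathway genes or the naming markers, and classes were named from markers. Mesenchymal cells were 2265, 5051, 2509 and 4887 of the kept cells, and the others were mainly blood cells. Early and late mesenchymal progenitor-like cells (EMP-like and LMP-like), osteoblast-like (OB-like), osteocyte-like (Ocy-like), adipocyte marker-positive stromal (AD-like), chondrocyte-like (CH-like) and endothelial-like cells had at least 30 cells in each library, as did a group of unnamed mesenchymal clusters led by Limch1 or Spp1. Ocy-like cells were few, with 41, 95, 33 and 46 cells. Of 7 to 9 markers per mesenchymal class, 4 to 9 were highest in that class, the fewest in OB-like cells, whose markers are shared with Ocy-like cells. The 1, 1.5 and 3 month libraries shared 30 to 61 barcodes in pairs and the 16 month library 1 or 2 with each, and leaving out all shared barcodes changed none of the 3 counts of inhibitors given below. Levels are CPM: the UMIs of a gene in all cells of 1 class and library were added up and set against all UMIs of these cells, and a gene was considered from 20 CPM in 1 class of 1 library. Ranges in parentheses are 95% Poisson intervals for CPM and exact Clopper-Pearson intervals for shares of cells, and both cover counting error only. Neutrophil-like cells should make none of the inhibitors, and their values are given beside the shares of cells as a background. At 1.5 months they carried as much chondrocyte marker RNA (73437 CPM summed over 8 markers) as CH-like cells (72357 CPM). Their own 7 neutrophil markers summed to 40288 CPM there, against 387158, 443567 and 378136 CPM at 1, 3 and 16 months. Their values of 1.5 months are therefore a doubtful background.

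The highest levels of the inhibitors were spread over several cell classes. Sost and Dkk1 were highest in Ocy-like cells, Dkk2 and Sfrp4 in EMP-like cells, Dkk3 in LMP-like cells, Sfrp1 in AD-like cells and Frzb in CH-like cells, and for these 7 of the 10 the same class was highest in all 4 libraries. Over all genes with at least 20 CPM in 1 class of 1 library, 17.2% kept 1 highest class. For Sost, Dkk1, Dkk2 and Dkk3 the highest class was at least 2-fold above every other class in each library, which held for 4.32% of those genes. The 4 libraries compared 17, 11, 14 and 12 classes, since some classes, mainly of blood cells, reached 30 cells in only some libraries. A gene highest in such a class could not meet either rule, which lowers both shares. The other 3 changed places: Sfrp2 was highest in EMP-like cells at 1 month and in LMP-like cells later, Sfrp5 was highest in CH-like cells up to 3 months and in EMP-like cells at 16 months, and Wif1 passed from the clusters led by Limch1 or Spp1 to Ocy-like cells. The count of 7 fell to 4 with 20 principal components in place of 30 or with all 4 libraries clustered together, and the count of 4 fell to 2, Sost and Dkk1, when cells of up to 10% mitochondrial UMIs were kept.

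**Figure D1:**
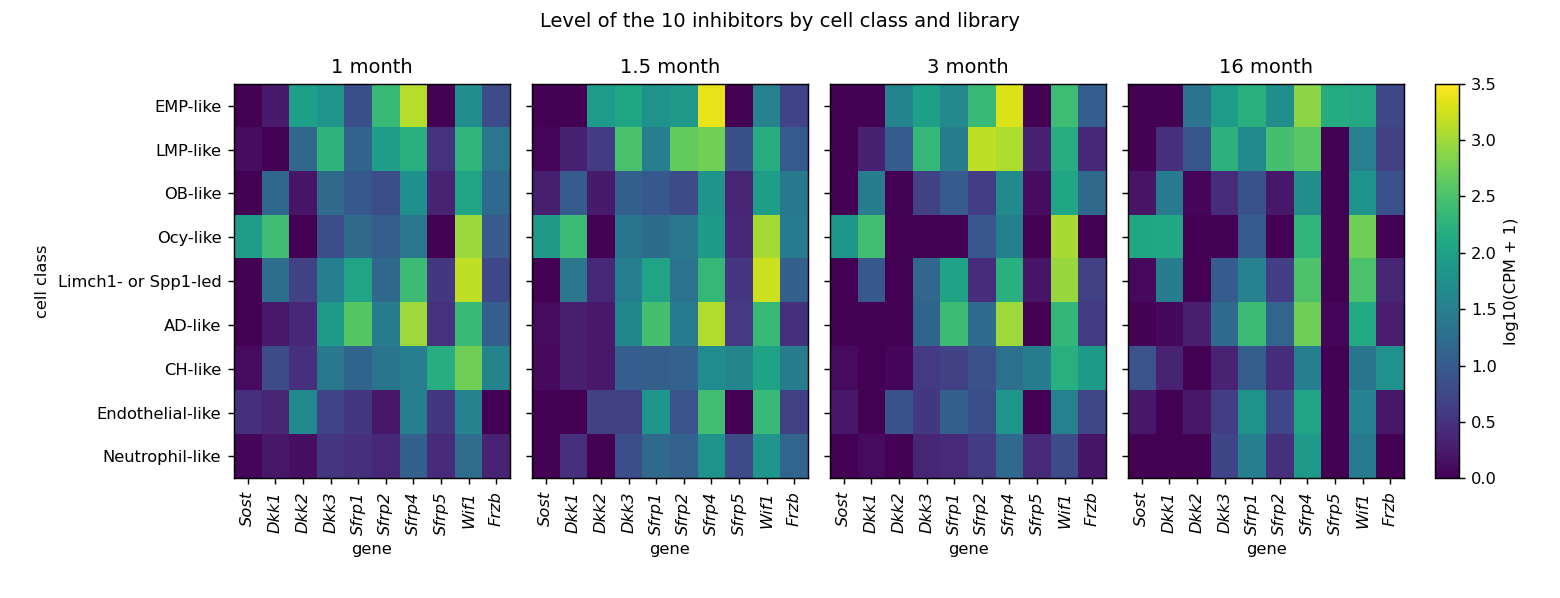
Heat maps of the level of the 10 inhibitors (columns) in 9 cell classes (rows), 1 panel per library. Color shows log10(CPM + 1), and classes under 30 cells are blank. Sost and Dkk1 are brightest in Ocy-like cells in every panel, and Sfrp5 is bright in CH-like cells in the first 3 panels and in EMP-like cells at 16 months.

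Among the co-receptor antagonists Sost, Dkk1 and Dkk2, Sost had the largest share of its UMIs in 1 class in every library. The gene lies on chromosome 11 from 101962458 to 101967015 on the minus strand, in 2 exons (GRCm38, GENCODE M21). The 250 bases before its annotated start are shown because its UMIs came from so few cells, and they hold none of the 3 motifs searched on both strands, the TATA box TATAAA, the RUNX core TGTGGT and the TCF/LEF core ATCAAAG. These letters occur in 12.4%, 14.0% and 3.21% of 32851 promoters of the same length. Only these exact letters were searched, and other AT-rich stretches, as near the end of this window, were not counted. Sequences are from RefSeq on GRCm38.p6, where 7 of the 10 inhibitors had an entry, and motifs, where present, are in capitals.
Sost, chr11:101967016-101967265, minus strand: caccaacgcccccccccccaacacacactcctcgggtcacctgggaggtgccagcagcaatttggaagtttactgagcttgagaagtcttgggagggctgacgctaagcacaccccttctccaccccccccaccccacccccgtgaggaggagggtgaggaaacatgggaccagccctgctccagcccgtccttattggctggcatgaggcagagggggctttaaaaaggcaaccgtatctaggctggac

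In Ocy-like cells Sost stood at 88.7 CPM (67.5 to 114) at 1 month, 74.8 CPM (60.8 to 90.9) at 1.5 months, 70.4 CPM (41.8 to 111) at 3 months and 112 CPM (87.1 to 141) at 16 months, from 59, 100, 18 and 70 UMIs. The 16 month library was the highest and the 3 month library the lowest, and their intervals overlap. With cells thinned to 3000 UMIs the 1 month level was 154 CPM. That is above the 16 month level just given, which was not thinned, so that the order of the libraries is uncertain. Ocy-like cells were 0.493, 1.74, 0.789 and 0.749% of the kept cells and held 81.9, 86.2, 85.7 and 78.7% of the Sost UMIs, a concentration well beyond that of Dkk1 (43.5, 61.3, 36.1 and 18.4% in the same class). The next class was 2.03 CPM at 1 month (endothelial-like, 3 UMIs in 1 cell), 0.972 CPM at 1.5 months (OB-like), 0.663 CPM at 3 months (endothelial-like, 1 UMI) and 6.78 CPM (3.38 to 12.1) at 16 months (CH-like). The ratio of the Ocy-like level to it was 43.8 (14.3 to 218), 76.9 (34.1 to 214), 106 (16.8 to 4429) and 16.5 (8.68 to 34.6), with wide intervals where the next class held 1 or 3 UMIs. The 11 Sost UMIs of the 16 month CH-like cells lay in 4 of 117 cells, all of them in the cluster with 5 of 5 hypertrophic markers raised, at 17.3 CPM (8.64 to 31.0). OB-like cells held 0, 6, 0 and 4 Sost UMIs, and EMP-like cells held none in any library, which allows up to 2.89, 3.70, 5.28 and 2.94 CPM.

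Not every Ocy-like cell held a Sost UMI. After each cell was thinned to 3000 UMIs, 22.0% (10.6 to 37.6), 11.6% (5.92 to 19.8), 15.2% (5.11 to 31.9) and 20% (8.44 to 36.9) of Ocy-like cells did, against 0% of neutrophil-like cells in each library. Before thinning the shares were 31.7, 21.1, 21.2 and 30.4%, with median depths of 16593, 13782, 7827 and 10096 UMIs in Ocy-like and 11679.5, 8529, 6118 and 5882.5 UMIs in neutrophil-like cells, of which 3 of 1870 held a Sost UMI at 1 month and none later. A few cells carried most of the signal: the cell with the most UMIs held 19, 21, 7 and 15 of them, and 3, 4, 2 and 3 cells were enough to reach 50% of the class total. Without the highest cell the level was 61.3, 59.4, 44.5 and 89.5 CPM. The 3 month level was also 44.5 CPM when barcodes found in more than 1 library were left out, so that it rests on few cells.

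Dkk1 (on chromosome 19 from 30545863 to 30549665 on the minus strand, in 4 exons) was highest in the same class. Its level in Ocy-like cells was 266 CPM (228 to 308) at 1 month, 247 CPM (222 to 276) at 1.5 months, 274 CPM (214 to 346) at 3 months and 126 CPM (99.9 to 157) at 16 months, from 177, 331, 70 and 79 UMIs. The intervals of the first 3 libraries overlap each other, and that of the 16 month library lies below all of them. The 16 month level was 0.510 (0.394 to 0.653) of the lowest of them, just short of the 2-fold used below for the 16 month comparison. Unlike Sost, Dkk1 also had a lower level in OB-like cells, at 14.1, 9.56, 29.4 and 27.0 CPM, and in the clusters led by Limch1 or Spp1, at 17.6, 23.8, 8.32 and 28.4 CPM. Within that group the Dkk1 UMIs lay in the cluster led by Spp1 and Cadm1, with 51.7 CPM at 1 month and 68.7 CPM at 1.5 months, while the cluster led by Kcnk2 and Limch1 had 1.32 and 0.720 CPM. The ratio of Ocy-like cells to the next class was 15.1 (11.2 to 20.7), 10.4 (8.30 to 13.1), 9.33 (6.76 to 12.8) and 4.44 (3.31 to 5.91). After thinning, 48.8, 29.5, 45.5 and 28.6% of Ocy-like cells held a Dkk1 UMI, against 0.214, 0.503, 0.233 and 0% of neutrophil-like cells. LMP-like, AD-like and EMP-like cells stayed at or under 2.02 CPM in every library, and CH-like cells reached 5.45 CPM at 1 month.

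Sost and Dkk1 were found in overlapping sets of Ocy-like cells. Of the cells with a Sost UMI, 9 of 13, 17 of 20, 5 of 7 and 10 of 14 also had a Dkk1 UMI, against 78.6, 52.0, 57.7 and 40.6% of the Ocy-like cells without Sost. Of all neutrophil-like cells 0.695, 2.01, 0.207 and 0% held a Dkk1 UMI, before thinning. Cells with Sost thus held Dkk1 less often than the rest at 1 month and more often in the later libraries, in small counts with no test. All these shares are before thinning. Depth was not matched between cells with and without Sost, and its part in the shares was not tested.

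**Figure D2:**
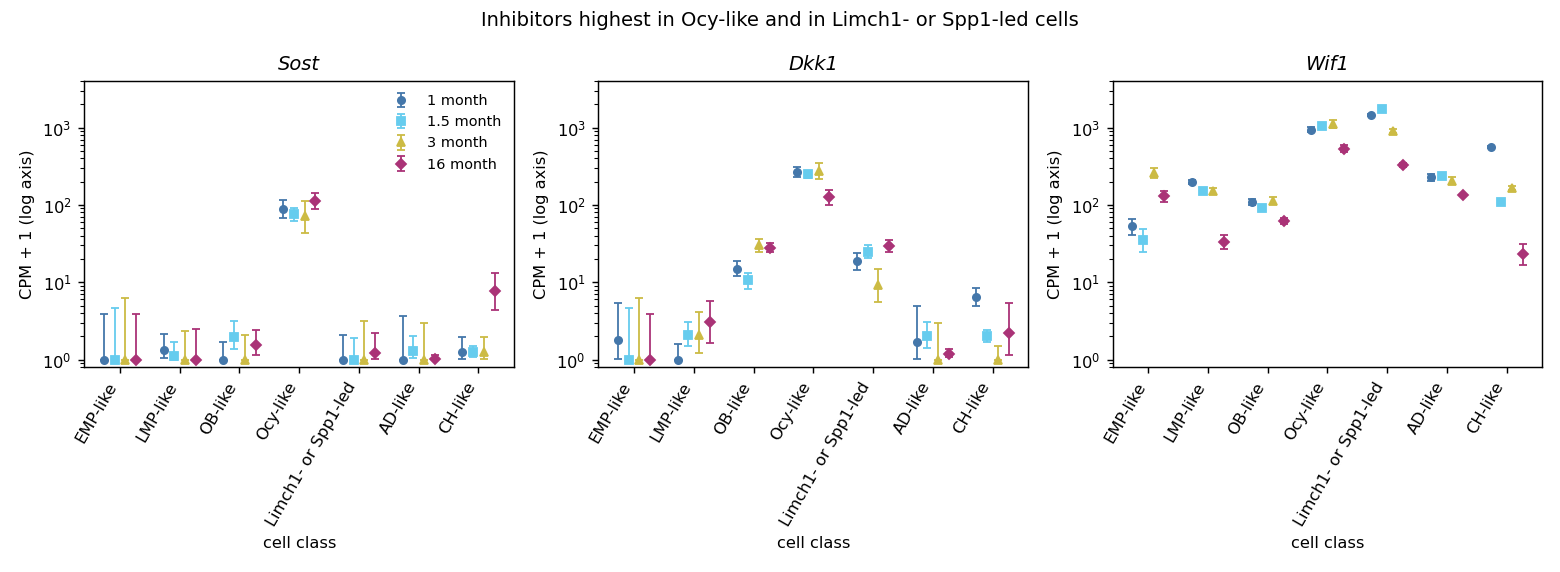
Levels of Sost, Dkk1 and Wif1 in the 7 mesenchymal classes of each library, as CPM + 1 on a log axis with 95% Poisson intervals as bars. Sost and Dkk1 peak in Ocy-like cells in all 4 libraries, while Wif1 is high in Ocy-like cells and in the clusters led by Limch1 or Spp1.

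Dkk2 (on chromosome 3 from 132085292 to 132180304 on the plus strand, in 4 exons) marked EMP-like cells, and within them a minority. Its promoter window is shown because, unlike that of Sost, it holds the exact letters TATAAA, 32 bases before the annotated start. Of all promoter windows, 12.4% hold them somewhere. Among the inhibitors with an entry, TATAAA was also found in the windows of Dkk1 and Wif1, TGTGGT in those of Dkk1 and Sfrp5, and ATCAAAG in none. The windows of Dkk1, Wif1 and Frzb overlap annotated gene sequence and are not shown.
Dkk2, chr3:132085042-132085291, plus strand: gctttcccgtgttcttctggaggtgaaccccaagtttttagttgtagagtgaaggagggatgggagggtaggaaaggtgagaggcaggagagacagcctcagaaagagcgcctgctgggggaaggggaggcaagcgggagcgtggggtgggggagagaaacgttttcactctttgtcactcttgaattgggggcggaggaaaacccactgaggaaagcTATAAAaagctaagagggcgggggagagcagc

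The level of Dkk2 in EMP-like cells was 94.6 CPM (78.5 to 113) at 1 month, 85.3 CPM (68.2 to 106) at 1.5 months, 37.2 CPM (24.3 to 54.6) at 3 months and 20.8 CPM (13.6 to 30.4) at 16 months, from 121, 85, 26 and 26 UMIs. The 1 and 1.5 month intervals lie above those of 3 and 16 months, but the 3 month level depended on the clustering. It was 56.4 CPM at resolution 0.5 and 120 CPM with all 4 libraries clustered together. The latter is above the 1 and 1.5 month levels just given, which were not clustered in that way. Endothelial-like cells came next at 1 month, with 45.2 CPM (35.1 to 57.5) from 67 UMIs in 32 of 169 cells, and held 1, 10 and 1 UMIs in the later libraries. In the 1.5 month library that class had only 30 cells. LMP-like cells had 13.2, 3.22, 9.39 and 7.69 CPM, unevenly spread. The LMP-like cluster led by Mfap4, Nppc and Nov had 35.6 and 12.7 CPM at 1 and 1.5 months, and its counterpart at 3 months 19.2 CPM, while the clusters led by Aspn had 0.520, 0.318 and 0.681 CPM. Dkk2 thus joined EMP-like cells and 1 of the LMP-like clusters. At 3 months all 26 Dkk2 UMIs of EMP-like cells lay in the cluster led by Clec3b, at 51.5 CPM (33.6 to 75.4), and the EMP-like cluster led by Mfap5 and Cxcl9 held none in 49 cells, which allows up to 19.1 CPM. After thinning, 16.9, 15.5, 8.13 and 5.59% of EMP-like cells held a Dkk2 UMI, against at most 0.16% of neutrophil-like cells. Ocy-like cells held no Dkk2 UMI in any library, which allows up to 5.55, 2.76, 14.4 and 5.89 CPM.

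Dkk3 (on chromosome 7 from 112116017 to 112159057 on the minus strand, in 8 exons) was highest in LMP-like cells, at 187 CPM (177 to 198) at 1 month, 316 CPM (304 to 328) at 1.5 months, 211 CPM (195 to 229) at 3 months and 176 CPM (159.8 to 193) at 16 months. The 1.5 month library was above the other 3, and EMP-like cells followed at 66.5, 111, 96.0 and 85.4 CPM. Within LMP-like cells Dkk3 ran opposite to Dkk2. The clusters led by Aspn, which encodes a matrix proteoglycan, had 238, 382 and 303 CPM at 1, 1.5 and 3 months, and the clusters with Mfap4 and Nov 109.5, 124 and 108 CPM. At 16 months LMP-like cells formed a single cluster, led by Aspn. The Dkk3 signal was spread over many cells: the cell with the most UMIs held 1.13 to 3.45% of the class total, and after thinning 36.2, 49.0, 32.9 and 35.2% of LMP-like cells held a UMI, against 0.695, 2.01, 0.466 and 1.29% of neutrophil-like cells. In AD-like cells the level was 80.7, 38.8, 12.4 and 15.5 CPM, and the 1 month library was the highest there. In CH-like cells it was 24.7, 10.1, 2.90 and 1.23 CPM.

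Of the inhibitors that bind Wnt proteins, Sfrp1 (on chromosome 8 from 23411502 to 23449632 on the plus strand, in 3 exons) was highest in AD-like cells, the stromal cells that carry Adipoq, Lepr and Cxcl12. Its level there was 372 CPM (341 to 406) at 1 month, 296 CPM (284 to 309) at 1.5 months, 248 CPM (226 to 272) at 3 months and 253 CPM (248 to 258) at 16 months. The 1 month library was the highest, and the intervals of the 3 and 16 month libraries overlap. With all 4 libraries clustered together the 1 month level was 181 CPM, the lowest of the 4, so that its rank depended on the clustering. The clusters led by Limch1 or Spp1 followed at 109.5, 111, 104 and 34.8 CPM, and at 1 and 1.5 months most of this lay in the cluster led by Kcnk2 and Limch1 (157 and 159 CPM) and little in the cluster led by Spp1 and Cadm1 (10.2 and 18.2 CPM). The division is the reverse of that of Dkk1 in the same clusters. After thinning, 63.0, 55.9, 49.6 and 43.7% of AD-like cells held a Sfrp1 UMI, against 0.374, 4.02, 0.932 and 6.03% of neutrophil-like cells. At 16 months AD-like cells were 60.3% of the kept cells and held 90% of the Sfrp1 UMIs, and neutrophil-like and erythroid-like cells of that library stood at 31.5 and 33.5 CPM.

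The 7 AD-like clusters of the 16 month library ranged from 104 CPM of Sfrp1 in the 52 cells led by Mrap and Kit to 343 CPM in the 37 cells led by Cxcl9 and Cxcl10. Their intervals do not overlap (76.8 to 138 against 287 to 406 CPM), and the other 5 clusters lay between 213 and 305 CPM.

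Sfrp4 (on chromosome 13 from 19623104 to 19632994 on the plus strand, in 6 exons) was shared between EMP-like and AD-like cells. EMP-like cells had 1270.3 CPM (1209 to 1334) at 1 month, 2383 CPM (2289 to 2481) at 1.5 months, 2098 CPM (1992 to 2208) at 3 months and 783 CPM (735 to 834) at 16 months, and AD-like cells 972, 1236, 976 and 540.3 CPM. The EMP-like level of 3 months was 3236 CPM at resolution 0.5 and 4519 CPM with all 4 libraries clustered together. Both are above the 1.5 month level just given, which was not clustered in those ways. The ratio of EMP-like cells to the next class was 1.31 (1.22 to 1.41), 1.93 (1.84 to 2.02), 1.80 (1.69 to 1.91) and 1.45 (1.36 to 1.55), above 1 beyond counting error in each library but short of 2. At 3 months the next class was LMP-like, at 1167 CPM, and most of this came from the cluster with Nov and Mfap4 (1949.8 CPM against 473 CPM in the cluster led by Ptn and Aspn). Nearly every AD-like cell held the transcript before 16 months: after thinning, 85.2, 89.9, 87.9 and 68.4% of AD-like cells held a Sfrp4 UMI, against 53.1, 65.5, 61.0 and 60.1% of EMP-like cells and 2.57, 15.6, 2.80 and 10.8% of neutrophil-like cells. EMP-like cells thus had the higher summed level with a smaller share of cells that held the transcript. In EMP-like cells 14, 10, 13 and 19 cells, 8.75, 8.62, 7.88 and 13.1% of the class, were enough to reach 50% of its Sfrp4 UMIs. Blood cells held more Sfrp4 at 1.5 and 16 months, where erythroid-like cells stood at 124 and 89.1 CPM, than at 1 and 3 months (10.3 and 13.1 CPM).

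Most AD-like cells held both transcripts. Of those with a Sfrp1 UMI, 97.4, 96.6, 92.0 and 92.3% also held a Sfrp4 UMI, against 94.6, 95, 89.4 and 83.0% of the other AD-like cells and 10.1, 30.7, 5.18 and 14.5% of neutrophil-like cells, all before thinning. Depth was not matched between these cells, and its part in the shares was not tested.

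Sfrp2 (on chromosome 3 from 83766321 to 83774316 on the plus strand, in 3 exons) was a transcript of progenitor-like cells whose level varied widely between libraries. LMP-like cells had 87.6 CPM (80.4 to 95.3) at 1 month, 451 CPM (437 to 466) at 1.5 months, 1459 CPM (1414 to 1505) at 3 months and 297 CPM (276 to 319) at 16 months, and EMP-like cells 225, 77.3, 238 and 51.9 CPM. The order of the classes at 1 month was the reverse of that in the later libraries. Again the LMP-like clusters differed. The cluster with Mfap4 and Nov had 139, 1398 and 2877 CPM at 1, 1.5 and 3 months, and the clusters led by Aspn had 60.3, 165 and 203 CPM, so that Sfrp2 and Dkk3 divided the LMP-like cells in opposite ways. The LMP-like signal was concentrated, with 26, 35 and 11 cells enough for 50% of the UMIs at 1.5, 3 and 16 months. In the EMP-like cells of 16 months a single cell held 46 of the 65 Sfrp2 UMIs, and without it the level there was 15.3 CPM. Of LMP-like cells with a Dkk3 UMI, 16.5, 27.3, 38.5 and 32.0% also held Sfrp2, against 21.1, 23.3, 52.4 and 24.7% of those without and 1.60, 10.6, 2.07 and 1.42% of neutrophil-like cells, all before thinning. These shares changed order from library to library. Depth was not matched between these cells either.

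Sfrp5 (on chromosome 19 from 42197971 to 42202252 on the minus strand, in 3 exons) was a transcript of chondrocyte-like cells in 3 libraries and of EMP-like cells in the fourth. Its promoter window is shown because of this change of class, and holds a TGTGGT 192 bases before the annotated start, as 14.0% of all windows hold one somewhere.
Sfrp5, chr19:42202253-42202502, minus strand: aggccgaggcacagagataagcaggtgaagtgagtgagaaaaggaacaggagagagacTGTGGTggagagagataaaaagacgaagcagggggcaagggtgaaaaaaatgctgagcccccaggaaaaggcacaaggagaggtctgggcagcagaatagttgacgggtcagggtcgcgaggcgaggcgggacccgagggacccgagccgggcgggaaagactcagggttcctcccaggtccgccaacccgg

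CH-like cells had 151 CPM (143 to 160.2) of Sfrp5 at 1 month, 38.0 CPM (35.8 to 40.3) at 1.5 months and 28.6 CPM (24.9 to 32.7) at 3 months, and 0 UMIs in 117 cells at 16 months, which allows up to 2.27 CPM. The level was lower in each later library, and the intervals of the 4 libraries do not overlap. As the mean of each cell's own CPM it was 191 CPM at 1 month, 61.3 CPM at 1.5 months and 49.7 CPM at 3 months, and after thinning 186, 63.2 and 39.6 CPM, in the same order. EMP-like cells went the other way, with 0 UMIs in the first 3 libraries, which allows up to 2.89, 3.70 and 5.28 CPM, and 144 CPM (124 to 167) at 16 months. These 181 UMIs lay in 8 of 145 cells, the richest of which held 50, and the level without it was 107 CPM. Prg4, which encodes the joint lubricant lubricin, led that EMP-like cluster, ahead of Clec3b. Within CH-like cells Sfrp5 was a transcript of the clusters led by Cytl1 (195 and 319 CPM at 1 and 1.5 months) and by Ucma (296, 61.7 and 108 CPM at 1, 1.5 and 3 months), which encodes a cartilage matrix protein. The Cytl1-led cluster was higher at 1.5 than at 1 month, and the Ucma-led clusters were higher at 3 than at 1.5 months. The order of the whole class thus did not hold within these clusters. Clusters led by Col10a1, the collagen of hypertrophic chondrocytes, had 3.32, 7.91 and 0 CPM. Neutrophil-like cells held 1.68, 5.40, 1.67 and 0 CPM.

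Frzb (on chromosome 2 from 80411970 to 80447625 on the minus strand, in 6 exons) was also highest in CH-like cells, at 37.4 CPM (33.2 to 42.0) at 1 month, 29.4 CPM (27.4 to 31.4) at 1.5 months, 79.6 CPM (73.3 to 86.2) at 3 months and 57.3 CPM (46.2 to 70.2) at 16 months. The margin was narrow at 1.5 months, where Ocy-like cells had 26.9 CPM and OB-like cells 25.0 CPM, and the ratio to the next class, 1.09 (0.782 to 1.57), did not separate them. It was 1.62 (1.32 to 2.00) at 1 month, 5.31 (3.97 to 7.23) at 3 months and 8.81 (6.15 to 12.8) at 16 months. Frzb, unlike Sfrp5, reached the Col10a1-led clusters. It was high in the Cytl1-led cluster (144 and 193 CPM at 1 and 1.5 months) and also present in the Col10a1-led clusters (41.1, 39.4 and 168 CPM), while the Ucma-led clusters had 9.99 and 8.70 CPM at 1 and 1.5 months and 63.9 CPM at 3 months. At 16 months a single cell held 39 of the 93 UMIs of CH-like cells, and the level without it was 33.6 CPM. After thinning, 7.55, 5.66, 14.8 and 9.73% of CH-like cells held a Frzb UMI, against 0.16, 3.52, 0.233 and 0% of neutrophil-like cells.

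Wif1 (on chromosome 10 from 121033960 to 121100650 on the plus strand, in 10 exons) was found in every mesenchymal class of every library at 22.2 CPM or more. The clusters led by Limch1 or Spp1 had 1457 CPM (1417 to 1499) at 1 month, 1734 CPM (1695 to 1774) at 1.5 months, 902 CPM (857 to 948) at 3 months and 326 CPM (310.1 to 343) at 16 months. Ocy-like cells had 937, 1062, 1115 and 535 CPM. The order of these 2 groups reversed between the 1.5 and 3 month libraries, where other clusters make up the first of them: at 1 and 1.5 months a cluster led by Kcnk2 and Limch1 (1601 and 2118 CPM) and a cluster led by Spp1 and Cadm1 (1155 and 987 CPM), at 3 months a cluster led by Limch1 and Angpt4, and at 16 months a cluster led by Dmp1 and Spp1. The level of the first group at 1.5 months depended on the clustering, with 1034 CPM at resolution 1.2 and 929.7 CPM with 20 components. The Ocy-like level above was 1062 CPM (1007 to 1118), and that under these 2 settings is not given here. The order at 1.5 months is therefore uncertain. A Wif1 UMI was found in 41 of 41, 93 of 95, 33 of 33 and 31 of 46 Ocy-like cells, and after thinning in 78.0, 85.3, 90.9 and 65.7% of them, against 3.85, 11.6, 2.33 and 4.74% of neutrophil-like cells. Wif1 was thus found in nearly all Ocy-like cells before 16 months, in contrast to Sost.

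In the other classes Wif1 followed single clusters. CH-like cells had 553, 108, 163 and 22.2 CPM, with 1637 and 1143 CPM in the Cytl1-led cluster at 1 and 1.5 months and 62.4, 38.1 and 33.7 CPM in the Col10a1-led clusters of the first 3 libraries. LMP-like cells had 197, 151, 151 and 32.4 CPM, with 381, 503 and 298 CPM in the clusters with Mfap4 and Nov and 94.3, 43.6, 20.4 and 32.4 CPM in the Aspn-led clusters of 1, 1.5, 3 and 16 months. Wif1, Sfrp2 and Dkk2 were thus higher in the LMP-like clusters with Mfap4 and Nov, where Dkk3 was lower than in the Aspn-led clusters. At 3 months the EMP-like cluster led by Clec3b had 350.5 CPM and that led by Mfap5 and Cxcl9 15.5 CPM. AD-like cells had 226, 238, 206 and 133 CPM, and OB-like cells 108, 90, 113 and 61.4 CPM.

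**Figure D3:**
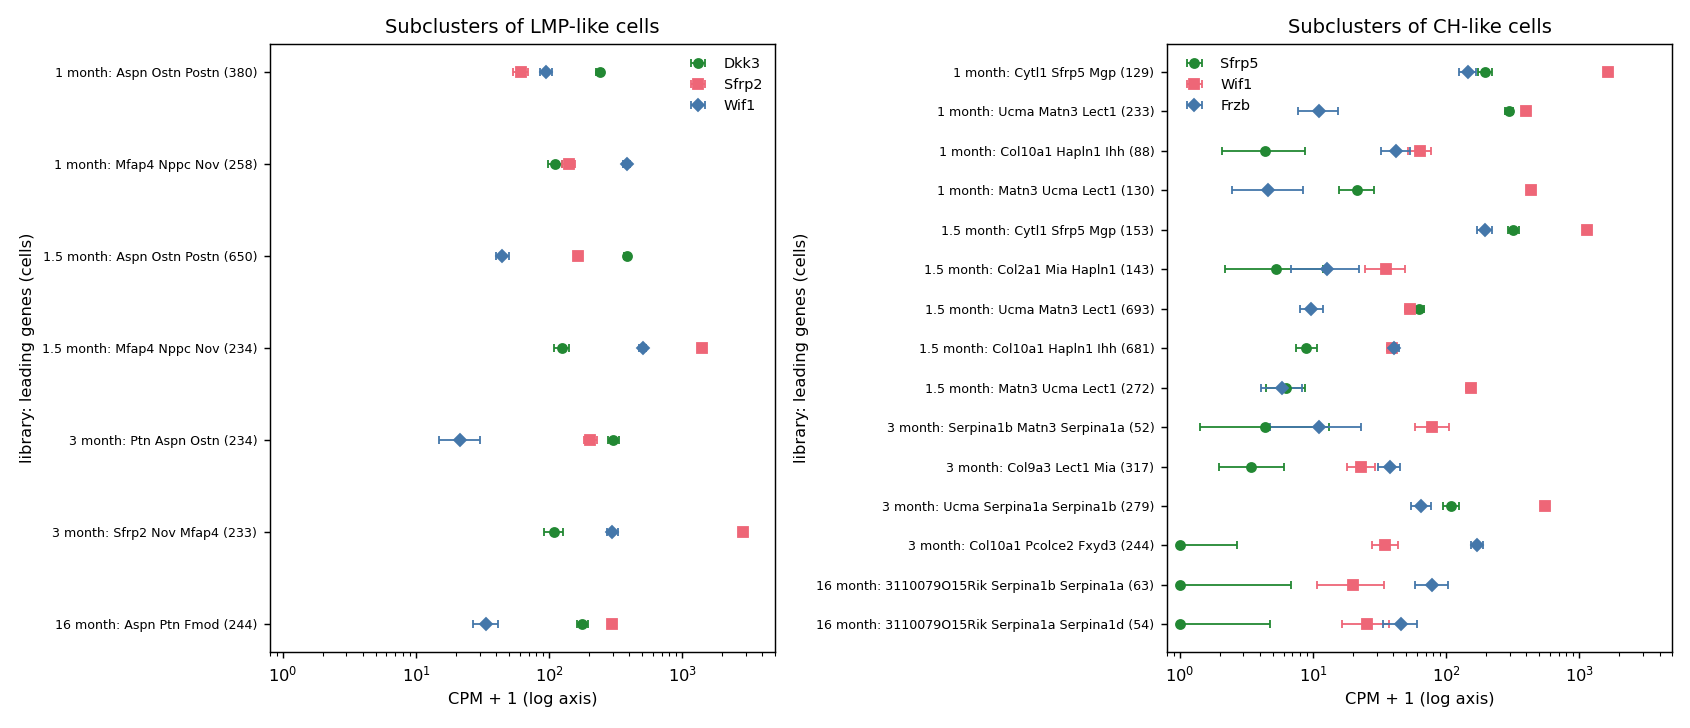
Levels of Dkk3, Sfrp2 and Wif1 in the clusters of LMP-like cells and of Sfrp5, Wif1 and Frzb in the clusters of CH-like cells, by library, as CPM + 1 on a log axis with 95% Poisson intervals as bars. Dkk3 is higher in the Aspn-led clusters, while Sfrp2 and Wif1 are higher in the clusters with Mfap4 and Nov; Sfrp5 and Wif1 are low in the Col10a1-led clusters, where Frzb is present.

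Counted per cell, the inhibitors were most often found together in AD-like cells up to 3 months. After thinning, an AD-like cell held on average 2.13, 2.03, 1.83 and 1.48 of the 10, an Ocy-like cell 1.66, 1.56, 1.64 and 1.34, an LMP-like cell 0.916, 1.39, 1.63 and 1.18 and an EMP-like cell 1.15, 1.33, 1.39 and 1.50, so that EMP-like and AD-like cells stood level at 16 months. OB-like cells held 0.541, 0.518, 0.497 and 0.422 and CH-like cells 0.894, 0.497, 0.401 and 0.257. At least 1 inhibitor was found in 97.9, 97.7, 97.9 and 86.4% of AD-like cells and in 44.6, 42.0, 37.2 and 35.2% of OB-like cells, and no cell of these classes held more than 5. Neutrophil-like cells held 0.0877, 0.437, 0.0793 and 0.233 of the 10 on average, and 7.86, 34.2, 7.46 and 16.4% held at least 1. At 1.5 months OB-like and CH-like cells stood little above them. The neutrophil-like cells of that library carried chondrocyte marker RNA, so that they cannot show how far these 2 classes lay above free RNA. OB-like cells, which build bone, held the fewest of these classes at 1 month, and CH-like cells in the later libraries. At 16 months CH-like cells also stood little above neutrophil-like cells, at 0.257 against 0.233.

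Endothelial-like cells, which line blood vessels, held inhibitors other than Dkk2 as well. Wif1 stood there at 35.8, 225, 33.1 and 34.8 CPM and Sfrp4 at 31.1, 272, 66.9 and 110.3 CPM. The 1.5 month library was the highest for both, in the class of only 30 cells, which also carried a sum of 9894 CPM of the AD markers, against 923, 2714 and 10748 CPM in that class at 1, 3 and 16 months. Their part in these levels was not tested. The background in neutrophil-like cells was 16.8, 65.8, 5.58 and 27.6 CPM for Wif1 and 10.8, 59.0, 14.5 and 77.1 CPM for Sfrp4. At 16 months the endothelial-like levels of both genes were little above it. Mural-like cells had 30 or more cells at 1.5 and 3 months only, and held no UMI of Sost, Dkk1 or Dkk2 there.

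The 16 month library was compared with the range of the other 3 within each named class, as the age comparison that the design offers. In 11 pairs of a gene and a class the 16 month level was at least 2-fold outside that range, 3 above and 8 below, among 39 pairs with at least 20 CPM in 1 library. They were read beside the share of all genes that met the same rule in that class. The unnamed clusters led by Limch1 or Spp1 were left out of this count. There Sfrp1 was at 0.334 (0.268 to 0.417) and Wif1 at 0.362 (0.337 to 0.389) of the lowest of the others at 16 months. Both are beyond 2-fold, in a group made up of other clusters at 16 months.

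In EMP-like cells 2 of 7 inhibitors were higher, against 13.5% of genes. Sfrp5, described above, went from 0 UMIs to 144 CPM. Sfrp1 had 6.26, 60.2, 43.0 and 168 CPM, and the 16 month level was 2.78-fold (2.08 to 3.77) the highest of the others. The AD markers moved with it. EMP-like cells held UMIs of 9 of 9 AD markers in each library, at a sum of 318, 1252, 2027 and 13392 CPM, against 35252 CPM in the AD-like cells of 16 months, and the blood cells named above also held Sfrp1 in that library. Their part in the Sfrp1 level was not tested. In Ocy-like cells Sfrp4 was higher, 1 of 7 against 11.3% of genes, with 22.6, 78.5, 31.3 and 193 CPM from 15, 105, 8 and 121 UMIs, or 2.46-fold (1.88 to 3.23) the highest of the others. Neutrophil-like cells held 10.8, 59.0, 14.5 and 77.1 CPM of Sfrp4, the most at 16 months as well, and the part of free RNA was not tested.

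Lower levels at 16 months were seen in 5 classes. In CH-like cells Dkk3, Sfrp2, Sfrp5 and Wif1 were lower, 4 of 6 against 10.1% of genes, while Frzb stayed within the range. Wif1 was at 0.206 (0.144 to 0.286) of the lowest of the others. Sfrp2 and Dkk3 held only 3 and 2 UMIs at 16 months, ratios of 0.286 (0.0570 to 0.886) and 0.424 (0.0484 to 1.73) to the lowest of the others, the latter not separated from 1 by counting error. The CH-like cells of 16 months were 117 cells in 2 clusters, of 63 and 54 cells, and neither was led by Cytl1 or Ucma, as the clusters in which Sfrp5 and Wif1 were high before had been, although Cytl1 was among the 10 leading genes of the 54 cells. The Wif1 level of the 63 cells with 5 of 5 hypertrophic markers raised, 18.9 CPM (9.75 to 33.0), compares with 33.7 CPM (26.5 to 42.4) in the Col10a1-led cluster of 3 months, and that of the 54 cells was 24.3 CPM (15.6 to 36.1). In LMP-like cells Wif1 was lower, 1 of 6 against 5.64% of genes, at 0.215 (0.167 to 0.273) of the lowest of the others. Within Aspn-led clusters alone the 16 month level lay inside the range of the others, as the values above show, and no cluster with Mfap4 and Nov was found at 16 months.

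In OB-like cells Frzb was lower, 1 of 4 against 3.31% of genes, with 14.8, 25.0, 15.0 and 6.50 CPM, a ratio of 0.439 (0.299 to 0.637). The remaining calls rest on few UMIs. Sfrp2 in Ocy-like cells, 1 of 7 against 4.35% of genes, had 7, 32, 2 and 0 UMIs, and the 0 of 16 months allows up to 5.89 CPM, so that a difference from the 3 month level of 7.83 CPM (0.948 to 28.3) was not detectable at this depth. Dkk2 in endothelial-like cells, 1 of 4 against 5.84% of genes, had 67, 1, 10 and 1 UMIs. In AD-like cells none of 5 inhibitors left the range by 2-fold, where 6.12% of genes were higher and 2.77% lower. The nearest were Sfrp4, at 0.556 (0.526 to 0.588) of the lowest of the others, and Wif1, at 0.647 (0.583 to 0.720). Without the 3 month library 18 pairs met the rule, with the top 8% of Scrublet doublet scores removed 7 did, and with all 4 libraries clustered together 6 did. Sfrp1 and Sfrp5 in EMP-like cells met the rule under each alternative in which EMP-like cells could be compared at 16 months.

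**Figure D4:**
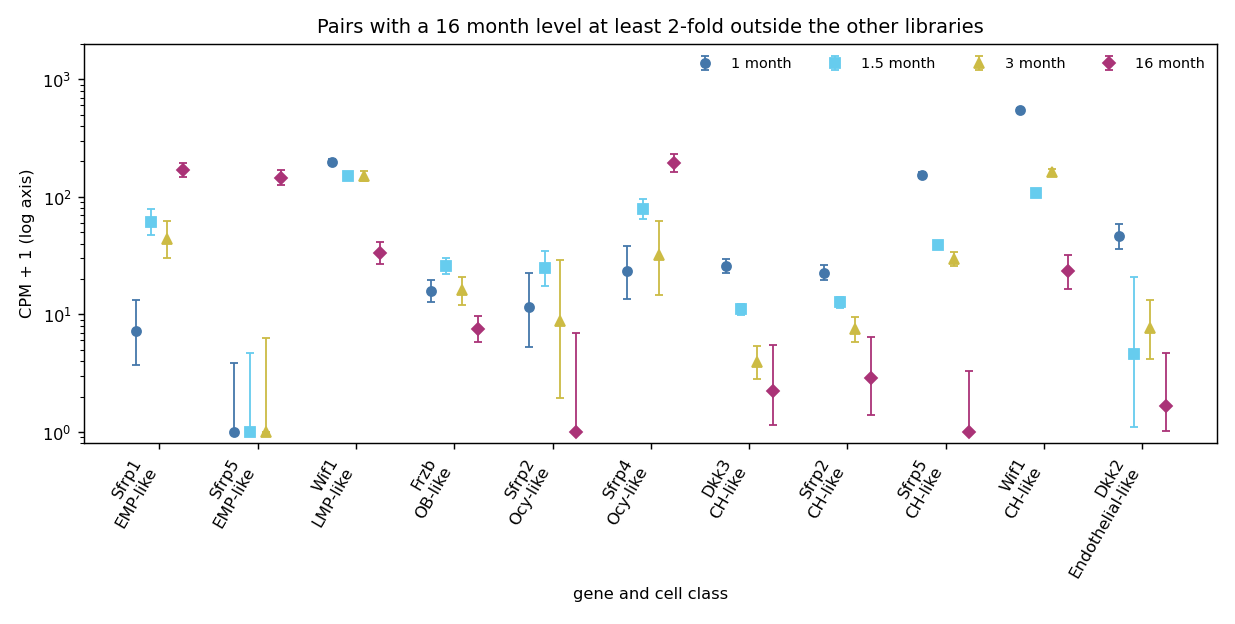
Level in each of the 4 libraries for the 11 pairs of a gene and a class whose 16 month level was at least 2-fold outside the range of the others, as CPM + 1 on a log axis with 95% Poisson intervals as bars. The 16 month points lie above the rest for Sfrp1 and Sfrp5 in EMP-like and Sfrp4 in Ocy-like cells, and below the rest in the other 8 pairs.

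The genes whose levels ran most like each inhibitor over the 54 sums of a class and a library were taken by Pearson correlation of log2(CPM + 1), among 10540 genes. These sums share libraries, depth and clustering, and the correlations are descriptions. Sost was closest to Art1 (0.96), Irx6 (0.93) and Art5 (0.92), of which Art1 and Art5 encode ADP-ribosyltransferases, and Dkk1 to 1700010H22Rik (0.93), Lipc (0.92) and Lpar3 (0.91), of which Lpar3 encodes a receptor for lysophosphatidic acid. For Dkk2 they were Pthlh (0.87), Ssc5d (0.85) and Fbln2 (0.85), of which Pthlh encodes parathyroid hormone-related protein, and for Dkk3 Sfrp2 (0.87), Prrx2 (0.87) and P4ha3 (0.87). Dkk3 and Sfrp2 were thus in each other's lists, although they divided the LMP-like clusters in opposite ways. Sfrp1 was closest to Mme (0.94), Dpep1 (0.93) and Fbln5 (0.92), of which Mme encodes the cell surface peptidase neprilysin, Sfrp2 to P4ha3 (0.88), Dkk3 (0.87) and Itgbl1 (0.87) and Sfrp4 to Loxl1 (0.90), Abi3bp (0.89) and Epdr1 (0.89). Sfrp5 had no close match, with Ocm (0.65), C1qtnf3 (0.63) and Fads2 (0.62). Wif1 was closest to Gja1 (0.82), Fbn2 (0.81) and Ibsp (0.81), where Gja1 encodes a gap junction protein and Ibsp bone sialoprotein, and Frzb to Unc5c (0.82), Chadl (0.81) and Gm10561 (0.78). Among the inhibitors themselves the closest pairs were Dkk3 and Sfrp2 (0.87), Sfrp1 and Sfrp4 (0.82), and Sost and Dkk1 (0.75).

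The other genes of the pathway were read from 3 lists. Of 18 receptors and co-receptors, 14 reached 20 CPM, 7 of them kept 1 highest class in all 4 libraries, against 17.2% of genes, and 1, Fzd6 in endothelial-like cells, was at least 2-fold above every other class, against 4.32% of genes. Both shares carry the limit given with the inhibitors. Ryk, which encodes a Wnt receptor of the tyrosine kinase family, was highest in Ocy-like cells, at 219.5, 256, 344 and 319 CPM, as Sost and Dkk1 were. Lrp4, which encodes a receptor that presents sclerostin, was highest in the clusters led by Limch1 or Spp1, at 58.8, 173, 147 and 63.0 CPM, and stood at 18.0, 63.6, 66.5 and 28.7 CPM in Ocy-like cells. Lrp6, the co-receptor that DKK1 occupies, was at 15.0, 16.4, 7.83 and 41.5 CPM in Ocy-like, 16.0, 16.0, 18.9 and 27.1 CPM in OB-like and 42.0, 41.0, 66.1 and 82.9 CPM in LMP-like cells, with no class that was highest throughout. Of 54 pairs of a receptor and a class, 16 were at least 2-fold above the other libraries at 16 months and none below, where 3.93 to 13.5% of all genes were above in the classes compared.

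Of 9 other extracellular modulators 4 reached 20 CPM. Igfbp4, which encodes a binding protein of insulin-like growth factors, was highest in AD-like cells, at 5876, 5835, 4843 and 6665 CPM, as Sfrp1 was. Cthrc1, which encodes a secreted collagen triple helix protein, was highest in OB-like cells at 1 and 16 months and in LMP-like cells between, at 1079, 866, 514 and 600.1 CPM in OB-like cells. Trabd2b, which encodes a protease that cleaves Wnt, stayed between 23.8 and 60.2 CPM in AD-like cells. Of their 20 pairs 1 was above and 4 below at 16 months, all 4 of the latter of Cthrc1, where 2.77 to 10.1% of all genes were below in the classes compared.

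Of 12 targets and feedback genes 8 reached 20 CPM. Bambi, which encodes a decoy receptor and is a target of Wnt signaling, was highest in Ocy-like cells, at 976, 1738, 1241 and 706 CPM against 351, 613, 439 and 224 CPM in OB-like cells, so that the class with the most Sost and Dkk1 also had the most Bambi in each library. Ccnd1, which encodes cyclin D1, was highest in endothelial-like cells in the first 3 libraries (159, 107, 124 and 88.0 CPM at 1, 1.5, 3 and 16 months), and Nkd2, a feedback inhibitor inside the cell, stood at 99 CPM in the EMP-like cells of 16 months. Of 25 pairs 5 were above and none below at 16 months. All 5 were of Nkd2, in EMP-like and LMP-like cells, or of Lgr5, in EMP-like, LMP-like and AD-like cells. The 5 lay in EMP-like and LMP-like cells, where 13.5% and 13.5% of all genes were above, and in AD-like cells, where 6.12% were.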

How the data were processed

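Digested endosteal marrow cells sorted for Td were sequenced by 10x Genomics single-cell RNA-seq, in 1 library per age. The authors deposited raw UMI counts per gene and barcode, made with Cell Ranger 3.0.2 on mm10 with the tomato sequence added, without pooling of libraries. Barcodes with 200 to 6000 genes and up to 5% mitochondrial UMIs were kept. Cells were clustered in Seurat 5.3.0 (R 4.3.3) with 2000 variable genes, 30 components and resolution 0.8, the 1 and 1.5 month libraries together after integration and the 3 and 16 month libraries alone. A total of 200 genes (inhibitors, pathway lists, markers, tomato) were kept out of the clustering. Mesenchymal clusters were clustered again. A cluster was named from 3 or more markers raised at least 2-fold, and otherwise left unnamed. The unnamed clusters with Limch1 or Spp1 among the 10 leading genes were joined after their values were seen. The deposited counts were summed per class and library, and classes of at least 30 cells were compared. Beyond the limit on genes no doublets were removed, and a Scrublet score served as an alternative. Named genes beyond the 10 inhibitors were the naming markers and, for each inhibitor, the 3 genes with the most similar levels. From each pathway list the 3 with the highest mean level over mesenchymal classes were also named. Fzd6, the pathway genes called at 16 months and the leading genes of clusters were named after their values were seen. The members, lists and rules were chosen with earlier results of these data known. Since each age is 1 library, differences have no replicate check and no test was made. Steps on many genes were tested on simulated data. The alternatives, 40 planned and 10 added after the data were seen, are described in the closing section. Motifs and promoter windows came from RefSeq.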

Additional observations from a re-analysis of the deposited data

Results flagged for a closer look

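Sfrp5 was singled out because its 16 month level moved in opposite directions in 2 classes. In EMP-like cells it was 144 CPM at 16 months and 0 in every other library, and in CH-like cells it was 0 CPM at 16 months and 28.6 to 151 CPM in the others. The difference between the classes was not tested, since each age is 1 library. The 181 UMIs of the EMP-like cells lay in 8 cells of a cluster led by Prg4.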

How the results depend on the processing

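Of 10 inhibitors, 7 kept 1 highest class, and this number was 6 to 8 under the other alternatives but 4 with 20 components and 4 with all 4 libraries clustered together. With 20 components EMP-like and LMP-like cells could not be told apart at 16 months, and clustered together EMP-like and CH-like cells were lost from the 16 month comparison. The 4 inhibitors at least 2-fold above every other class were 3 to 6, but 2 with up to 10% mitochondrial UMIs. The 11 pairs at 16 months became 7 with the top 8% of Scrublet scores removed, 6 with all libraries clustered together, 17 at 1.5-fold, 18 without the filter on low levels and 18 without the 3 month library. They were 9 without the 1 month and 12 without the 1.5 month library, 14 after TMM scaling (edgeR 4.0.16), 12 after thinning and 11 without barcodes found in more than 1 library, an alternative chosen after seeing the data. Of 390 single levels recomputed, 307 lay inside the counting interval and 14 moved by over 1.5-fold. These include Dkk2 in the EMP-like cells of 3 months (120 CPM clustered together), Sfrp4 there (4519 CPM), Wif1 in the clusters led by Limch1 or Spp1 at 1.5 months (929.7 CPM with 20 components, 1034 CPM at resolution 1.2), Sfrp5 in the EMP-like cells of 16 months (93.0 CPM with up to 10% mitochondrial UMIs), Sfrp1 in the AD-like cells of 1 month (181 CPM clustered together), Sfrp5 in the CH-like cells of 1.5 months (63.2 CPM thinned) and Sost in the Ocy-like cells of 1 month (154 CPM thinned). The cause of these changes was not tested. No paired analysis was possible because each age is 1 library. Ocy-like cells, 33 to 95 per library, limit what Sost and Dkk1 can show.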
